A study of Mus musculus with 7 samples.

Results

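The nuclear-encoded subunits of the mitochondrial respiratory chain and ATP synthase were examined in cultured hepatocytes from WDR6-WKO and WT mice. Genes were taken from the read-count table by symbol, as those of the families *Nduf* (a, b, c, s and v), *Sdh* (a to d), *Uqcr*, *Cox4* to *Cox8* and *Atp5*. This gave 80 of 14819 genes, with 38 for complex I, 4 for complex II, 8 for complex III, 13 for complex IV and 17 for complex V, and all 80 passed edgeR's filter on low counts. The symbols also took in an annotated non-coding gene (*Ndufb1-ps*), an annotated pseudogene (*Cox6c2*) and 3 genes of related proteins that are not regular subunits (*Ndufa4l2*, *Cox7a2l* and *Atp5s*).

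The study's 7 libraries came from hepatocytes of male mice, 4 of them WT and 3 WDR6-WKO. WDR6-WKO mice lack exon 2 of *Wdr6* in the whole body after CRISPR-Cas9 editing, so the cells had lived without the gene before they were isolated, in a body that lacked it too. The cells were isolated by collagenase perfusion, grown in serum-containing William's E medium and kept overnight, with no treatment in either group. The study's methods give C57BL/6J mice of 7 weeks as the default and call its replicates biological in general. They do not give the age or background strain of the WDR6-WKO mice or say that each library came from a separate mouse, so the p-values measure the spread between these samples.

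Oxidative phosphorylation passes electrons from NADH through complex I, or from succinate through complex II, to ubiquinone, then through complex III and cytochrome *c* to complex IV, which reduces oxygen. Complexes I, III and IV pump protons across the inner membrane, and complex V uses the resulting gradient to make ATP. Complexes I, III, IV and V are mosaics of a few subunits encoded by mitochondrial DNA and many encoded in the nucleus, and hepatocytes are rich in mitochondria. Within complexes I and IV, a conserved core carries the redox centres and small accessory or supernumerary subunits surround it.

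The libraries held 17816913 to 23668940 counted reads, and the biological coefficient of variation was 7.40%. Levels are CPM, read counts normalised to library size with edgeR's TMM factors. Every fold change is WDR6-WKO over WT, and each p called an edgeR adjusted p comes from its quasi-likelihood test, adjusted by the Benjamini-Hochberg method over 14779 genes. *Wdr6* was at 40.6 to 49.0 CPM in WT and 2.23 to 2.58 CPM in WDR6-WKO libraries. Of 8 hepatocyte markers, *Cps1*, *Hnf4a* and *Apoa1* were lower in WDR6-WKO (6.18% of all genes were), and the summed level of the list was 8212 to 9819 CPM in WT and 7650 to 8165 CPM in WDR6-WKO libraries. Most of this hepatocyte sum was *Alb* (6360 to 7934 CPM in WT and 6087 to 6803 CPM in WDR6-WKO), which overlapped between groups and was not called. *Serpina1c* and *Apoc3* had positive log2 fold changes (0.24 and 0.06, not called), and the other markers of the list had negative ones. Of 12 macrophage markers, *Lyz2*, *C1qc* and *C1qb* were higher (6.65% of all genes were). The sum of the list was 859.5 to 939 CPM in WT and 993 to 1191 CPM in WDR6-WKO libraries. *Timd4* was the 1 marker of that list with a negative log2 fold change (-0.48, not called). It was at 2.87 to 4.02 CPM in WT and, without overlap, at 2.29 to 2.84 CPM in WDR6-WKO libraries (11.7% of all genes lay below WT in this way). Stellate cell markers (2 of 9 higher, 1 lower) summed to 675 to 733 CPM in WT and 718 to 783 CPM in WDR6-WKO, endothelial markers (0 of 8 called) to 305 to 347 and 279 to 338 CPM, and cholangiocyte markers (2 of 5 higher, *Spp1* and *Sox9*) to 3068 to 3360 and 3714 to 4306 CPM. Most of that last sum was *Spp1* (2824 to 3139 CPM in WT and 3464 to 4082 CPM in WDR6-WKO), while the keratins *Krt19* and *Krt7*, which define the cell type, had log2 fold changes of -0.05 and -0.10 and were not called. No marker tested was at 0 in any library, and the lymphocyte and erythroid lists had 1 gene each tested, neither called. Because the libraries are bulk RNA, fewer cells of a type and less RNA per cell cannot be told apart, and the part of other cell types in the results below was not tested.

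WDR6-WKO replicate 3 stood apart from the other WDR6-WKO libraries in these genes. Relative to the WT mean on the log2(CPM + 0.5) scale, the median of the 80 genes was 0.18 in WDR6-WKO replicate 1 and 0.24 in replicate 2, but -0.05 in replicate 3. The WT medians were 0.03, 0.02, -0.05 and -0.0025 in replicates 1 to 4, so WDR6-WKO replicate 3 lay among the WT libraries and replicates 1 and 2 above them. Of the 80 genes, 55 were above the WT range in WDR6-WKO replicate 1, 62 in replicate 2 and 9 in replicate 3, while 9, 4 and 30 were below it. These counts were not taken over all genes, so whether they are particular to the 80 genes was not tested. WDR6-WKO replicate 3 was the lowest of the WDR6-WKO libraries in 65 of the 80 genes, against 40.2% of all genes tested. The 80 genes together took 0.651% to 0.694% of the counts in WT libraries and 0.766%, 0.800% and 0.667% in WDR6-WKO replicates 1 to 3. For this reason the called genes, among the 80 and in the other mitochondrial lists, are counted with all libraries and again without WDR6-WKO replicate 3. That library was picked after its low values in these same genes were seen. More higher calls without replicate 3 follow in part from that choice, so they describe the libraries and are no separate evidence of a change. Of the marker lists, 7 of 12 macrophage markers were higher without replicate 3 (14.5% of all genes were), and still 3 of 8 hepatocyte markers were lower (14.1%).

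**Figure D1:**
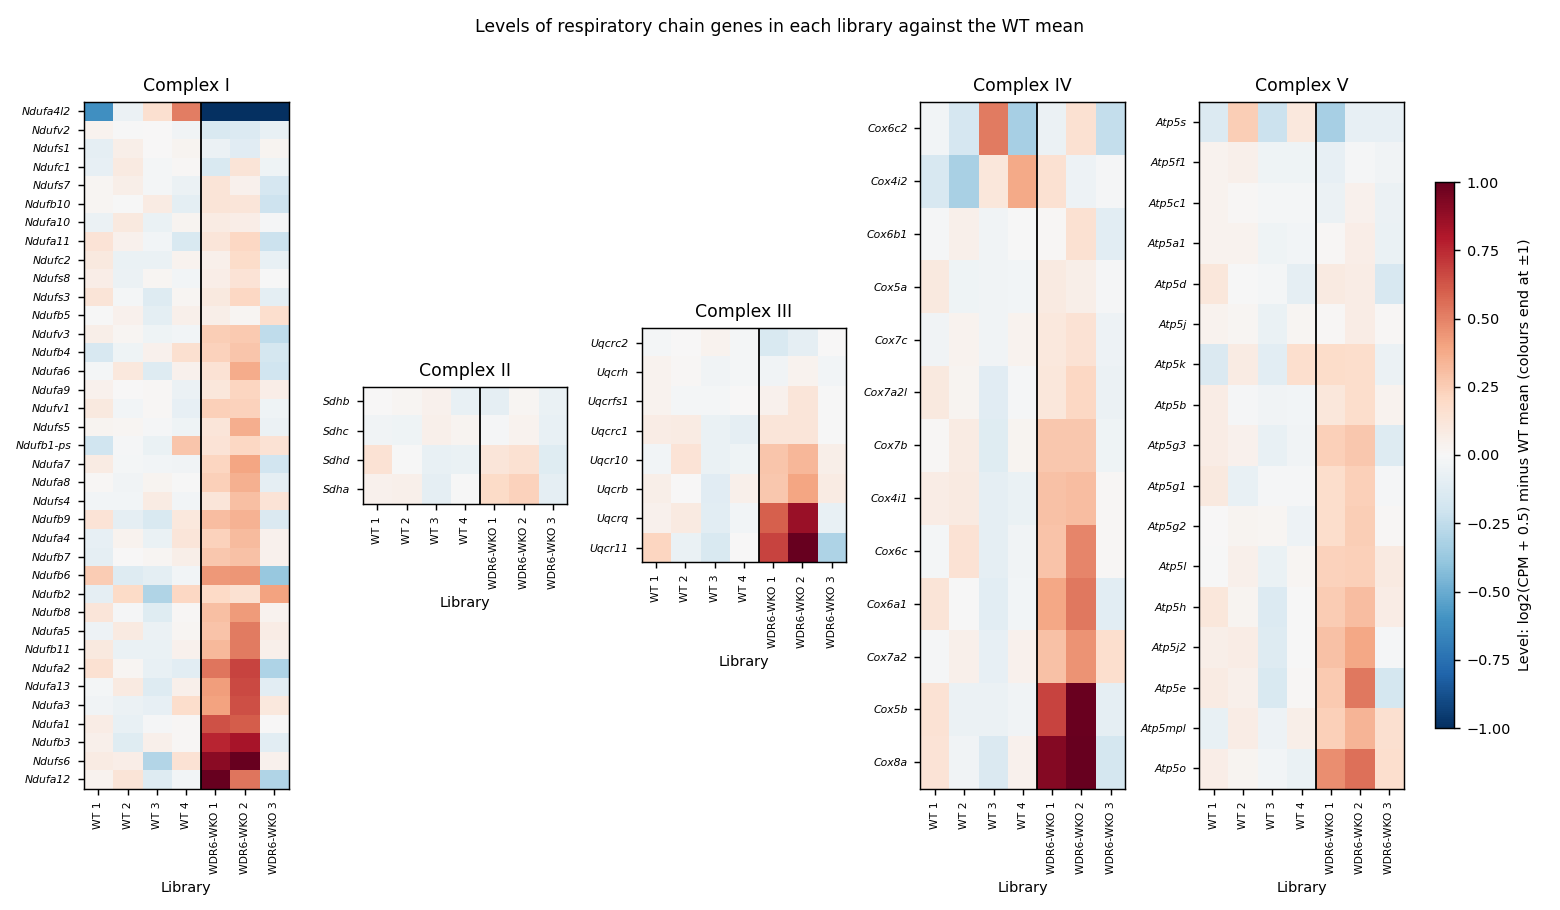
Heat maps of the 80 genes but 1 that is not drawn (vertical axis) in each of the 7 libraries (horizontal axis), 1 panel per complex, as log2(CPM + 0.5) minus the WT mean, with colours ending at 1 above and 1 below. WDR6-WKO replicates 1 and 2 are mostly red, 55 and 62 of the 80 genes being above the WT range, and replicate 3 is mixed, with 9 above and 30 below it. The same counts were not taken over all genes.

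With all 7 libraries, most of these genes had small positive fold changes and few passed the test. The log2 fold change was above 0 for 68 of 80 genes (85.0%, against 51.2% of all genes tested), and the median was 0.14, against 0.01 over all genes. At an adjusted p under 0.05, 9 genes were higher in WDR6-WKO hepatocytes (11.2%, against 6.65% of all genes) and 1 was lower (1.25%, against 6.18%). Counted in either direction, the 10 genes were 12.5% of the 80, near the 12.8% called among all genes. The 9 higher genes were *Ndufa1*, *Ndufa3*, *Ndufa5*, *Ndufb11*, *Uqcrb*, *Uqcr10*, *Cox7a2*, *Atp5o* and *Atp5mpl*, with log2 fold changes of 0.23 to 0.47. The exact two-sided permutation test, unadjusted, gave its smallest possible p, 0.0286, for *Uqcrb*, *Cox7a2*, *Atp5o* and *Atp5mpl*. By that permutation test, p was 0.0571 for *Ndufa5* and *Ndufb11* and 0.0857 for *Ndufa1*, *Ndufa3* and *Uqcr10*. The lower gene was *Ndufa4l2*. With the study's own thresholds (log2 fold change of 0.35 or more in size, P below 0.05 without adjustment), 6 genes were higher (6.42% of all genes were) and 1 was lower (3.94%). At an unadjusted p under 0.05, 26 were higher (32.5%, against 14.6% of all genes) and 2 lower (2.50%, against 13.6%). All WDR6-WKO libraries lay above all WT libraries for 7 genes (11.8% of all genes did so) and below them for 2 (11.7%).

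Without WDR6-WKO replicate 3, 45 of the 80 genes were higher (14.5% of all genes were) and 2 were lower (14.1%), and the median log2 fold change was 0.21. All 9 genes above were among the 45, and *Ndufv2* joined *Ndufa4l2* among the lower genes. Leaving out any other library left fewer calls, with 5 genes higher without WT replicate 1 (5.03% of all genes were), 4 without WT replicate 2 (4.63%), 2 without WT replicate 3 (4.33%) and 4 without WT replicate 4 (4.4%). Without WDR6-WKO replicate 1 it was 2 (4.08%), as it was without replicate 2 (3.85%). *Cox7a2* and *Atp5o* were called in each of these fits.

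**Figure D2:**
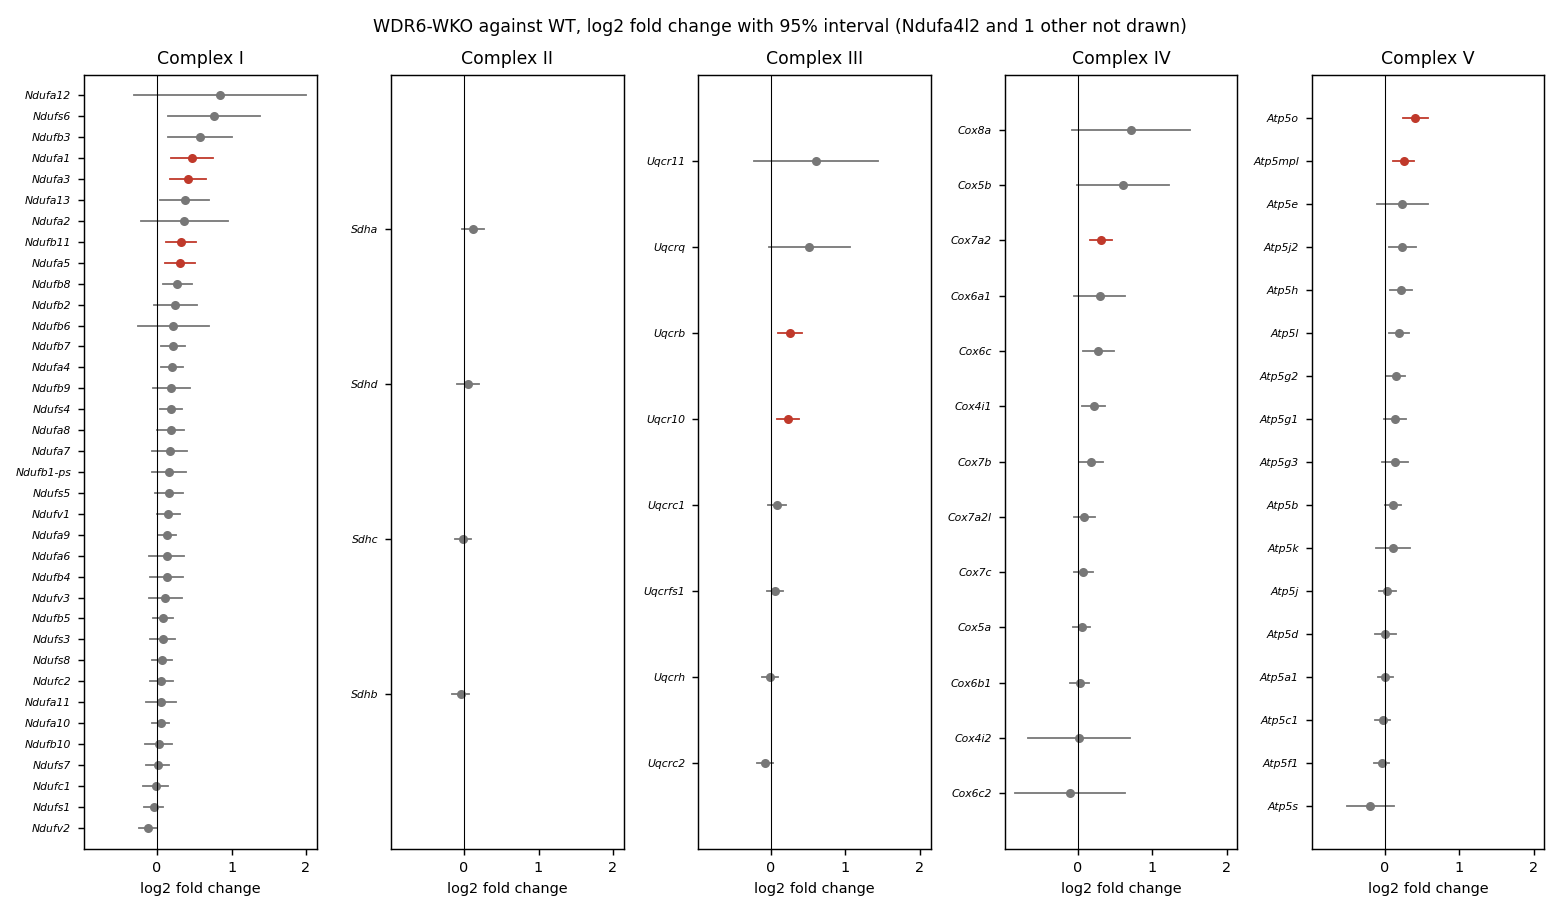
Log2 fold change of WDR6-WKO over WT with its 95% interval (horizontal axis) for the genes (vertical axis; *Ndufa4l2* and 1 other are not drawn), 1 panel per complex, with red for an adjusted p under 0.05. The 9 red genes lie between 0.23 and 0.47. Wide intervals are seen for *Ndufa12* and *Cox8a*, which were uneven between WDR6-WKO replicates 1 to 3 (35.8, 17.3 and 9.44 CPM, and 90.9, 102.6 and 42.5 CPM). They are also seen for *Cox4i2* and *Cox6c2*, which had WT means of 0.87 and 0.92 CPM.

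The promoter sequence of some of these genes holds letters recognised by factors known to govern respiratory genes. NRF1 binds a palindromic GC-rich motif, GABP (NRF2) binds ETS motifs, and YY1 has been tied to mitochondrial gene expression with PGC-1α. RefSeq promoters of GRCm38.p6 (250 bases before to 50 after a start, 300 in all) were matched by symbol for 65 of the 80 genes and searched on both strands. The string GCGCA, any base, then GCGC, for NRF1, was in 17 of the 65 (26.2%), against 5.19% of 27025 genes. CCGGAAG, an ETS string, was in 16 (24.6%, against 9.93%), and AAGATGGC, a YY1 string, in 10 (15.4%, against 3.19%). No overlap between the strings was removed, and a match describes letters, not binding. The lines that follow show the NRF1 and YY1 strings, in capitals, of 3 higher genes and of 3 uncalled ones, so that both can be read side by side, each 5′ to 3′ on the gene's strand. The Ndufa5 string starts at position -190 from one annotated start and -26 from another, that of Atp5o at 10 and that of Ndufa3 at 23, with the start as position 1.

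Ndufa5, NRF1, higher, chr6:24527697-24527726, minus strand: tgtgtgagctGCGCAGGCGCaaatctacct

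Atp5o, NRF1 (string on the opposite strand), higher, chr16:91931602-91931631, minus strand: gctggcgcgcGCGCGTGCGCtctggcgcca

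Ndufa3, YY1, higher, chr7:3617385-3617412, plus strand: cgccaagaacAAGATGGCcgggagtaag

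Sdha, NRF1, not called, chr13:74350319-74350348, minus strand: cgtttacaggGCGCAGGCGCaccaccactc

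Uqcrc1, NRF1, not called, chr9:108936668-108936697, plus strand: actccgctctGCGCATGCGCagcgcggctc

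Ndufs4, YY1, not called, chr13:114388045-114388069, minus strand: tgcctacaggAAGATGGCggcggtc

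Called and uncalled genes alike held the strings. Of the 7 higher genes with a promoter in the table, 2 held the NRF1 string, 1 the YY1 string and 0 the ETS string. *Ndufa5* and *Sdha* have the same letters in the string shown, and *Sdha*, which holds the NRF1 string at 3 positions, did not pass the test.

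Complex I is the NADH dehydrogenase and the entry point for electrons from NADH. Its 7 nuclear core subunits, which bind flavin and the iron-sulfur clusters, had a median log2 fold change of 0.02, and 0 of 7 passed in edgeR, DESeq2 or limma-voom, with 1 at an unadjusted p under 0.05 in edgeR. Its 28 accessory subunits, which assemble around that core, had a median of 0.19, and 4 of 28 were higher (14.3%, against 6.65% of all genes). Without WDR6-WKO replicate 3 the medians were 0.08 and 0.29, with 1 core gene higher (14.3%), 1 lower and 20 accessory genes higher (71.4%), against 14.5% of all genes higher and 14.1% lower. The difference between core and accessory genes was not tested, and their median transcript lengths were 1623 and 718 bases.

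Among the accessory genes, *Ndufa1* encodes a small membrane subunit on the X chromosome. It was counted at 11.8, 10.6, 11.1 and 11.3 CPM in WT replicates 1 to 4 and at 17.7, 17.3 and 11.2 CPM in WDR6-WKO replicates 1 to 3. Replicates 1 and 2 were thus well above the WT range and replicate 3 within it, and the log2 fold change was 0.47 ± 0.13 (SE; edgeR adjusted p = 0.0328), or 0.64 without replicate 3. *Ndufa3*, another single-pass membrane subunit, was at 16.7, 16.5, 16.2 and 19.5 CPM in WT and 22.9, 27.1 and 18.5 CPM in WDR6-WKO. Its ranges overlapped only through WT replicate 4 and WDR6-WKO replicate 3, and its log2 fold change was 0.41 ± 0.11 (SE; edgeR adjusted p = 0.0283), or 0.53 without replicate 3. Exons of *Ndufa3* overlap *Tfpt* on the other strand, and reads of the pair cannot be told apart without strand.

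*Ndufb11*, an X-linked membrane-arm subunit, was at 29.3 to 33.0 CPM in WT and 38.6, 44.4 and 32.0 CPM in WDR6-WKO, a log2 fold change of 0.32 ± 0.09 (SE; edgeR adjusted p = 0.0378). *Ndufa5*, a subunit of the matrix arm, was at 25.9 to 28.7 CPM in WT and 32.8, 38.9 and 28.3 CPM in WDR6-WKO, a log2 fold change of 0.31 ± 0.09 (SE; edgeR adjusted p = 0.0397). In both genes WDR6-WKO replicate 3 lay within the WT range, and the fold changes without it were 0.42 and 0.41. Exons of *Ndufb11* overlap *Rbm10* on the other strand, and 9.5% of its 50-base sequences also occur in transcripts of another gene.

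Some larger fold changes in complex I did not pass the test, and in these genes WDR6-WKO replicate 3 lay far from replicates 1 and 2. *Ndufs6*, whose zinc-binding product is needed late in assembly, was at 12.4 to 17.0 CPM in WT and 29.0, 33.6 and 15.8 CPM in WDR6-WKO, with a log2 fold change of 0.77 ± 0.26 (SE; edgeR adjusted p = 0.109). *Ndufb3*, a small membrane subunit, was at 11.1 to 12.6 CPM in WT and 20.8, 21.8 and 11.2 CPM in WDR6-WKO (log2 fold change 0.58 ± 0.19, edgeR adjusted p = 0.0816). Without replicate 3 both were called, with log2 fold changes of 1.02 and 0.81. *Ndufa12*, an accessory subunit of the matrix arm, was uneven in all 3 WDR6-WKO libraries, at 35.8, 17.3 and 9.44 CPM against 10.7 to 12.9 CPM in WT, and 26.2% of its 50-base sequences also occur in transcripts of another gene. These 3 genes and *Ndufa5* were picked after their values were seen.

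The core genes described here differed little from WT. *Ndufs1*, the largest iron-sulfur subunit, was at 73.9 to 81.8 CPM in WT and 75.5, 72.9 and 80.4 CPM in WDR6-WKO (log2 fold change -0.05). *Ndufv2*, an iron-sulfur subunit of the NADH-oxidising module, was at 59.2 to 61.9 CPM in WT and 54.3, 55.0 and 57.5 CPM in WDR6-WKO. Its ranges did not overlap, with every WDR6-WKO library below WT, and the exact two-sided permutation test gave p = 0.0286, the smallest that 35 splits of 4 and 3 libraries allow. Over all genes it did not pass (log2 fold change -0.12 ± 0.06, edgeR adjusted p = 0.153).

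*Ndufa4l2* had by far the lowest WDR6-WKO level relative to WT of the 80 genes. Its product resembles NDUFA4 and is known as a hypoxia-inducible protein that dampens complex I activity. It was counted at 1.16, 1.94, 2.34 and 3.11 CPM in WT replicates 1 to 4 and at 0.374, 0.142 and 0.223 CPM in WDR6-WKO replicates 1 to 3, from raw counts of 23, 37, 44 and 62 and of 9, 3 and 4. All 3 WDR6-WKO libraries, replicate 3 included, lay below all WT libraries. The log2 fold change was -3.05 ± 0.42 (SE; edgeR adjusted p = 0.00019), and -2.99 without replicate 3. Of the 80 genes it alone had a log2 fold change of 1 or more in size (1.25%, against 1.54% of all genes). Its exons overlap those of *Shmt2*, a mitochondrial one-carbon enzyme on the opposite strand, which was at 110 to 129 CPM in WT and 148, 201 and 157 CPM in WDR6-WKO (log2 fold change 0.51, edgeR adjusted p = 0.00813), a change in the other direction that was not called without replicate 3 (0.56, edgeR adjusted p = 0.0615). *Ndufa4*, the related gene, which was first assigned to complex I and is now regarded as a complex IV subunit, was at 91.5 to 105 CPM in WT and 114, 121 and 100.03 CPM in WDR6-WKO (log2 fold change 0.20 ± 0.07, edgeR adjusted p = 0.0687), and was called without replicate 3 (0.27). Per kilobase of transcript, *Ndufa4* was at 159 and *Ndufa4l2* at 2.29 CPM in WT.

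**Figure D3:**
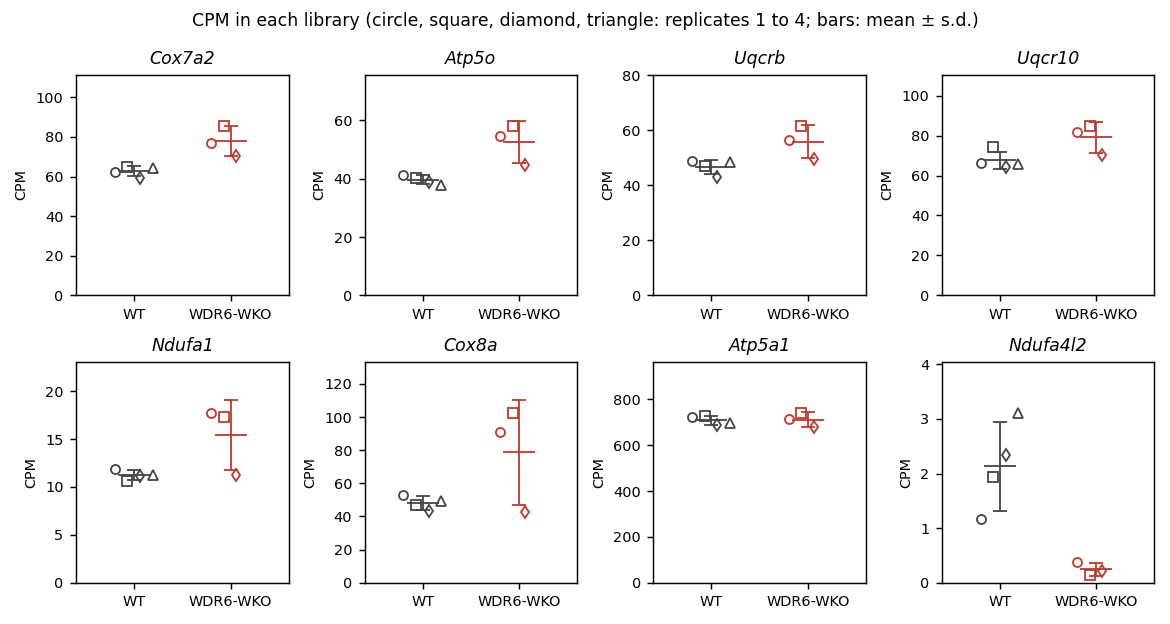
CPM (vertical axis, starting at 0) of 8 genes in each library by genotype (horizontal axis), with the mean and s.d. (WT n = 4, WDR6-WKO n = 3). In *Cox8a* and *Ndufa1* the diamond, WDR6-WKO replicate 3, lies beside the WT points (42.5 CPM for *Cox8a*), in *Atp5a1* all libraries lie between 678 and 741 CPM, and in *Ndufa4l2* all 3 WDR6-WKO libraries are under 0.4 CPM.

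Complex II, succinate dehydrogenase, links the TCA cycle to the chain and has no mitochondrially encoded subunit. None of its 4 genes passed in edgeR, DESeq2 or limma-voom, 0 had an unadjusted p under 0.05 in edgeR, and their median log2 fold change was 0.02, or -0.02 after correction of each library for transcript length and GC content. *Sdha*, the flavoprotein, was at 203 to 223 CPM in WT and 246, 253 and 202 CPM in WDR6-WKO (log2 fold change 0.12 ± 0.07, edgeR adjusted p = 0.286), and was the 1 complex II gene called without replicate 3. *Sdhb*, the iron-sulfur subunit, was at 79.3 to 85.9 CPM in WT and 78.5, 84.6 and 79.4 CPM in WDR6-WKO (log2 fold change -0.04). The membrane anchors *Sdhc* and *Sdhd* had log2 fold changes of -0.02 and 0.05, and the groups overlapped for all 4 genes.

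Complex III, the cytochrome *bc1* complex, oxidises ubiquinol and reduces cytochrome *c*. Its small supernumerary subunits had a median log2 fold change of 0.26, with 2 of 5 higher (40.0%, against 6.65% of all genes), and its core proteins *Uqcrc1* and *Uqcrc2* had 0.08 and -0.08, neither called. Without replicate 3, 4 of the 5 small subunits were higher (80.0%, against 14.5%) and the core proteins were again not called. *Uqcrb*, a ubiquinone-site subunit, was at 48.7, 46.9, 43.2 and 48.3 CPM in WT and 56.4, 61.7 and 49.5 CPM in WDR6-WKO. All 3 WDR6-WKO libraries were above WT, replicate 3 only just, and the log2 fold change was 0.26 ± 0.07 (SE; edgeR adjusted p = 0.0327; exact permutation p = 0.0286). As 43.2% of its 50-base sequences occur in transcripts of 4 other genes, its count could have been split.

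*Uqcr10*, a short membrane subunit, was at 66.0, 74.1, 64.5 and 65.5 CPM in WT and 81.9, 85.0 and 70.3 CPM in WDR6-WKO. The groups overlapped between WT replicate 2 and WDR6-WKO replicate 3, and the log2 fold change was 0.23 ± 0.07 (SE; edgeR adjusted p = 0.0456). *Uqcrq*, a ubiquinone-binding subunit, was at 76.6 to 87.6 CPM in WT and 125, 150.2 and 78.4 CPM in WDR6-WKO, a larger but uncalled log2 fold change of 0.52 ± 0.22 (SE; edgeR adjusted p = 0.194). Without replicate 3 the log2 fold changes of *Uqcrb*, *Uqcr10* and *Uqcrq* were 0.33, 0.30 and 0.73, all 3 called. *Uqcrh*, the acidic hinge protein, differed little between groups (76.0 to 80.1 CPM in WT and 76.0 to 79.7 CPM in WDR6-WKO), as did the Rieske iron-sulfur protein *Uqcrfs1* (log2 fold change 0.06). *Uqcrc1* starts 357894 bases from the end of *Wdr6* on chromosome 9, at 174 to 197 CPM in WT and 186 to 203 CPM in WDR6-WKO.

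Complex IV, cytochrome *c* oxidase, passes electrons to oxygen. Its nuclear subunits do not carry the redox centres, which sit in mitochondrially encoded subunits, and several exist as tissue or condition isoforms. All 11 nuclear subunits had positive log2 fold changes, with a median of 0.21, and 1 of 11 was higher with all libraries (9.09%, near the 6.65% of all genes) and 7 of 11 without replicate 3 (63.6%, against 14.5%). *Cox7a2*, the liver form of subunit VIIa, was at 62.3, 64.9, 59.2 and 64.5 CPM in WT and 77.0, 85.7 and 70.5 CPM in WDR6-WKO. Here replicate 3 also stood above every WT library, and the log2 fold change was 0.31 ± 0.07 (SE; edgeR adjusted p = 0.00631; exact permutation p = 0.0286), or 0.37 without replicate 3.

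*Cox8a*, the ubiquitous form of the smallest subunit, showed the split between the WDR6-WKO libraries clearly. It was at 52.7, 46.9, 43.3 and 49.6 CPM in WT and 90.9, 102.6 and 42.5 CPM in WDR6-WKO, so replicates 1 and 2 were far above WT and replicate 3 was the lowest of the 7. Its log2 fold change was 0.71 ± 0.31 (SE; edgeR adjusted p = 0.214), and 1.0 without replicate 3, when it was called. *Cox5b*, which binds zinc and was picked after its values were seen, showed the same order (31.1 to 35.8 CPM in WT and 52.0, 64.4 and 30.3 CPM in WDR6-WKO).

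*Cox4i1*, the general isoform of subunit IV, was at 208 to 236 CPM in WT and 272, 275 and 224 CPM in WDR6-WKO (log2 fold change 0.21 ± 0.07, edgeR adjusted p = 0.0677), and was called without replicate 3 (0.30, edgeR adjusted p = 1.26e-05). Its hypoxia-inducible counterpart *Cox4i2* was near the lower limit, at 0.576 to 1.26 CPM in WT and 0.803 to 0.997 CPM in WDR6-WKO, with an interval of the log2 fold change from -0.67 to 0.70. Per kilobase, *Cox4i1* was at 298 and *Cox4i2* at 1.20 CPM in WT. *Cox6a1*, the general form of subunit VIa, had a log2 fold change of 0.29 ± 0.14, *Cox6c* 0.27 ± 0.09, *Cox7b* 0.18 ± 0.08 and *Cox6b1* 0.02 ± 0.06 (SE), none of them called. Without replicate 3, *Cox6a1* (0.46), *Cox6c* (0.38) and *Cox7b* (0.27) were called and *Cox6b1* (0.08) was not. *Cox7a2l*, a factor that joins complexes III and IV into supercomplexes, had 0.09 ± 0.07, and 0.15 without replicate 3, when it was called. The heart and muscle isoforms *Cox6a2*, *Cox7a1* and *Cox8b* were not analysed here.

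Complex V, the ATP synthase, couples proton flow through a membrane rotor to ATP synthesis in its F1 head. The genes of the catalytic head and central stalk had a median log2 fold change of 0.01, with 0 of 5 called by edgeR, DESeq2 or limma-voom and 1 at an unadjusted p under 0.05 in edgeR, against 0.21 for 4 membrane subunits, of which 1 was higher (25.0%, against 6.65% of all genes). Without replicate 3, 2 of 5 head and stalk genes (40.0%) and 3 of 4 membrane subunits (75.0%) were higher, against 14.5% of all genes. *Atp5o*, the OSCP subunit that ties the peripheral stalk to the head, was at 41.3, 40.3, 38.9 and 37.8 CPM in WT and 54.8, 58.2 and 44.6 CPM in WDR6-WKO. All 3 WDR6-WKO libraries were above WT, and the log2 fold change was 0.41 ± 0.08 (SE; edgeR adjusted p = 0.00323; exact permutation p = 0.0286), or 0.51 without replicate 3. Of the 50-base sequences of *Atp5o*, 35.5% also occur in transcripts of 2 other genes, 1 of them a second gene model of the same symbol.

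*Atp5mpl*, a small proteolipid bound to the synthase, was at 35.4, 39.3, 36.0 and 39.0 CPM in WT and 44.3, 47.5 and 41.9 CPM in WDR6-WKO. Its groups did not overlap, and its log2 fold change was 0.25 ± 0.07 (SE; edgeR adjusted p = 0.0225), or 0.29 without replicate 3. *Atp5l*, subunit g, also had WDR6-WKO libraries (55.9, 56.4 and 50.8 CPM) above all WT libraries (45.4 to 49.4 CPM), with an adjusted p just past the threshold (0.0509 in edgeR, log2 fold change 0.19), and was called without replicate 3 (0.24). The 3 c-ring genes *Atp5g1*, *Atp5g2* and *Atp5g3*, which encode the same mature peptide, had similar log2 fold changes of 0.14, 0.15 and 0.14. None was called with all libraries, and all 3 were called without replicate 3. Of their 50-base sequences, 68.5% in *Atp5l*, 66.0% in *Atp5g1* and all in *Atp5g2* also occur in transcripts of other genes. Counts of *Atp5l*, *Atp5g1* and *Atp5g2* could thus have been split, whereas *Atp5g3* shared none of its sequences.

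*Atp5b*, the catalytic beta subunit and the most abundant of the 80 transcripts per kilobase, had a mean of 1047 CPM with an s.d. of 35.8 over 4 WT libraries, and of 1129 CPM with an s.d. of 55.9 over 3 WDR6-WKO libraries (log2 fold change 0.11 ± 0.05, edgeR adjusted p = 0.15), and was called without replicate 3 (0.14). The alpha subunit *Atp5a1* was at 687 to 726 CPM in WT and 678 to 741 CPM in WDR6-WKO. The gamma subunit *Atp5c1* and the stalk subunit *Atp5f1* had log2 fold changes of -0.03 and -0.04, and *Atp5s*, coupling factor B, had -0.19 ± 0.15, at 5.42 to 7.65 CPM in WT and 4.95 to 6.0 CPM in WDR6-WKO.

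Transcript length moved with these results. The principal transcripts of the 80 genes had a median length of 760.5 bases, against 2656 bases over all genes tested. The median log2 fold change of the 80 genes was 0.24 for transcripts under 600 bases (n = 25), 0.19 for 600 to 1000 bases (n = 28), 0.08 for 1000 to 2000 bases (n = 22) and 0.01 for longer ones (n = 5). Among all genes the medians of the same classes were 0.11, 0.12, 0.05 and -0.02, so short transcripts had higher values there too. Across the 80 genes, which share their libraries, Spearman's rho between log2 length and the level relative to the WT mean was -0.44 in WDR6-WKO replicate 1, -0.49 in replicate 2 and -0.02 in replicate 3.

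With each library corrected for transcript length and GC content, the median of the 80 genes was 0.04, against -0.01 over all genes. Then 6 genes were higher (8.36% of all genes were), *Ndufa1*, *Ndufa3*, *Ndufa5*, *Ndufb11*, *Cox7a2* and *Atp5o*, and *Ndufa4l2* was lower (10.3%). *Uqcrb*, *Uqcr10* and *Atp5mpl* were no longer called. With replicate 3 also left out, a combination chosen after seeing the data, 26 genes were higher (11.5% of all genes) and 5 were lower (13.6%), and the median was 0.09. The mitochondrial ribosomal RNAs also separated the WDR6-WKO libraries. *mt-Rnr2* was at 640.3 to 783 CPM in WT and 344, 352 and 605 CPM in WDR6-WKO replicates 1 to 3, and *mt-Rnr1* at 404 to 584 CPM and 222, 224 and 462 CPM (edgeR adjusted p = 0.139 and 0.232). The part of transcript length, or of whatever else set these libraries apart, in the values of the 80 genes was not tested beyond that correction.

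**Figure D4:**
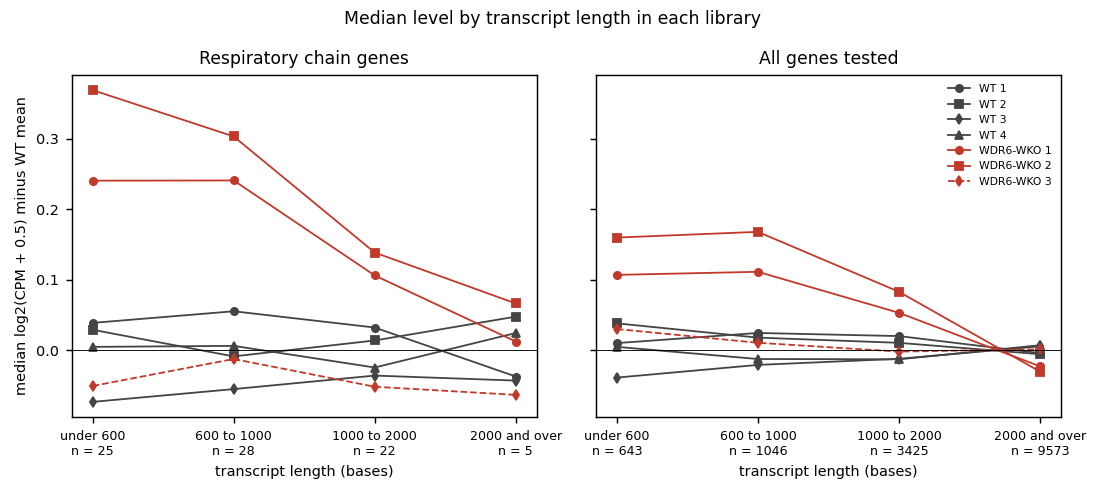
Median of log2(CPM + 0.5) minus the WT mean (vertical axis) by class of transcript length in bases (horizontal axis) in each library, for the 80 genes on the left and all genes tested on the right. In WDR6-WKO replicates 1 and 2 the 80 genes go from 0.24 and 0.37 under 600 bases to 0.01 and 0.07 from 2000 bases, and a smaller slope is seen over all genes. Replicate 3 (dashed) lies among the WT lines, except for the 80 genes from 1000 bases up, where it is just below them (-0.05 and -0.06).

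Genes that build or serve the chain were read off the same fit. Of 51 assembly factors, 5 were higher (9.8%, near the 6.65% of all genes) and 0 lower, and the median log2 fold change was 0.12. The 5 were *Ndufaf4*, a complex I factor (log2 fold change 0.36, edgeR adjusted p = 0.00618), *Uqcc1*, a complex III factor (0.25), *Cox10*, the heme A farnesyltransferase (0.28), *Cox16*, a complex IV factor (1.03, at only 1.05 to 1.31 CPM in WT and 1.79 to 3.40 in WDR6-WKO), and *Fmc1*, a complex V factor (0.62). *Ndufaf4* was at 22.8 to 25.0 CPM in WT and 28.9, 29.9 and 34.1 CPM in WDR6-WKO, so here replicate 3 was the highest library. Without replicate 3, 16 assembly factors were higher (31.4%, against 14.5% of all genes) and 1 was lower (14.1% of all genes). Among the 16 was *Uqcc2*, a complex III factor, with a log2 fold change of 0.48 that was not called with all libraries (edgeR adjusted p = 0.0568) and 0.68 without replicate 3.

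Of 10 outer membrane genes, 4 were higher (40.0%, against 6.65% of all genes), the import receptor *Tomm20* (log2 fold change 0.20), its small partners *Tomm5* (0.32) and *Tomm7* (1.34) and the channel *Vdac2* (0.15). *Tomm7* was at 5.13 to 6.60 CPM in WT and 19.0, 17.4 and 7.71 CPM in WDR6-WKO, so replicates 1 and 2 were far above WT and replicate 3 was above it by less. Without replicate 3 the 4 were again higher, with *Samm50*, an outer membrane assembly protein, as the fifth (14.5% of all genes were higher). Of 10 electron carriers and subunits outside the symbol families, 0 were higher and 1 was lower (6.65% and 6.18% of all genes were). The lower gene was *Etfdh*, which feeds electrons from fatty acid oxidation to ubiquinone (log2 fold change -0.18, edgeR adjusted p = 0.0446). Cytochrome *c* (*Cycs*, 0.22) and cytochrome *c1* (*Cyc1*, 0.13) did not pass. Without replicate 3, *Cycs* (0.32), *Cyc1* (0.20) and the ATPase inhibitor *Atpif1* (0.49) were higher (30.0% of the list, against 14.5% of all genes). As many, *Etfdh*, *Gpd2* and *Ndufab1*, or 3 of 10, were lower (14.1% of all genes were).

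None of 14 transcriptional regulators of mitochondrial genes passed in edgeR, DESeq2 or limma-voom, and 2 had an unadjusted p under 0.05 in edgeR. *Tfam*, which packages and transcribes mitochondrial DNA, was at 48.0 to 50.4 CPM in WT and 43.2, 42.8 and 46.7 CPM in WDR6-WKO (log2 fold change -0.14, edgeR adjusted p = 0.145), and the coactivator *Ppargc1a* was at 7.38 to 8.08 CPM in WT and 8.36 to 11 CPM in WDR6-WKO (0.27, edgeR adjusted p = 0.151). Without replicate 3, *Esrra*, a nuclear receptor that works with PGC-1α, was higher (0.45, edgeR adjusted p = 8.97e-06), and *Tfam* (-0.18, edgeR adjusted p = 0.0207) and the coactivator *Pprc1* (-0.16) were lower, or 1 of 14 higher (7.14%, against 14.5% of all genes) and 2 of 14 lower (14.1% of all genes). None of 13 TCA cycle genes passed in these tests, with 2 at an unadjusted p under 0.05 and a median log2 fold change of 0.02. Without replicate 3, *Idh3b*, an isocitrate dehydrogenase subunit, was higher (0.29), and *Fh1*, fumarate hydratase (-0.19), and *Ogdh*, a subunit of the 2-oxoglutarate dehydrogenase complex (-0.11), were lower, with 1 of 13 higher (7.69%, against 14.5% of all genes).

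The mitochondrially encoded subunits did not share the pattern of libraries seen for their nuclear partners. Of 12 tested, 0 were called by edgeR, DESeq2 or limma-voom, 1 had an unadjusted p under 0.05 in edgeR, and their median log2 fold change was -0.01. Single values were spread widely around that median, from -0.96 to 0.69, with 6 above 0 and 6 below. Without replicate 3 the median was -0.13 and *mt-Co1*, the catalytic subunit of complex IV, was lower (-0.17, edgeR adjusted p = 0.00321; 14.1% of all genes were lower). Their median relative to the WT mean was -0.06 in WDR6-WKO replicate 1, -0.20 in replicate 2 and 0.15 in replicate 3, the reverse order of the nuclear genes. They took 2.97% to 3.29% of the counts in WT and 3.01%, 2.98% and 3.63% in WDR6-WKO libraries. *mt-Nd4*, a proton-pumping core subunit of complex I, was at 2410.2 to 2627 CPM in WT and 2665 to 2974 CPM in WDR6-WKO (log2 fold change 0.13, edgeR adjusted p = 0.0953).

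**Figure D5:**
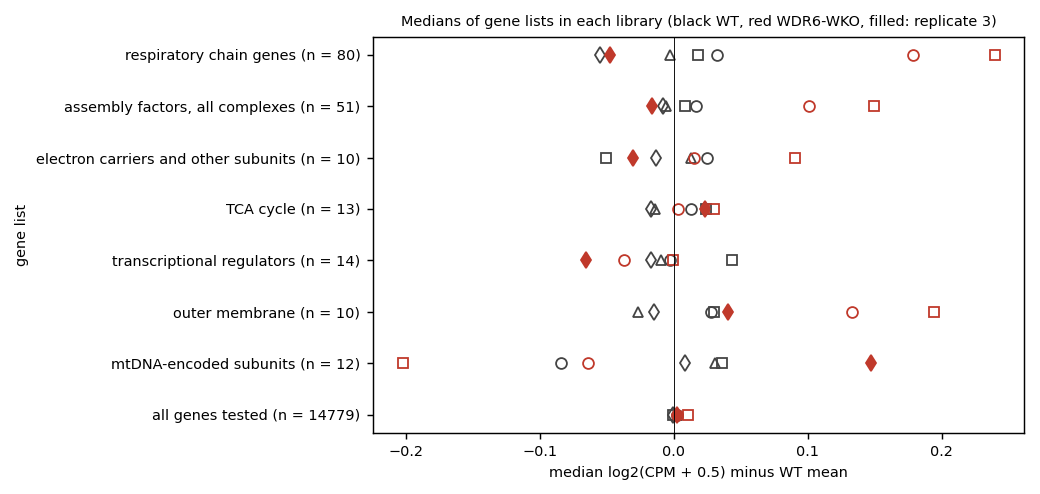
Median of log2(CPM + 0.5) minus the WT mean (horizontal axis) of each gene list (vertical axis) in each library, with black symbols for WT, open red ones for WDR6-WKO replicates 1 and 2 and filled red ones for replicate 3. The nuclear respiratory chain genes have WDR6-WKO replicates 1 and 2 (0.18 and 0.24) above the WT libraries and replicate 3 (-0.05) among them, and the mtDNA-encoded subunits have replicate 3 highest (0.15).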

How the data were processed

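The authors sequenced RNA of 7 hepatocyte samples, mapped the reads to mm10 (GRCm38) with Bowtie 2.2.3, per the labels, and deposited raw read counts per gene symbol. The counting tool, its annotation and its strand setting are not given in the sources used here. Columns were matched to samples by name, and 0 columns were left unused.

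The counts of 14779 genes were tested with edgeR 4.0.16 in R 4.3.3 (TMM scaling, filterByExpr, robust quasi-likelihood test, genotype only) and Benjamini-Hochberg adjustment. Standard errors were derived from the fold change and the F statistic, and exact permutation tests used all 35 splits. Same-numbered libraries of the groups did not deviate together (r = 0.0689, 0.0311 and 0.0566), so no block was used. Libraries of a genotype correlated at a Spearman's rho of 0.992 to 0.996, and none was a copy of another (chi-square of 3.80 to 15.9 per gene). At this depth 3 of the 80 genes, with a WT mean under 5 CPM, rest on few counts. Transcript lengths, overlaps and shared 50-base sequences came from the GENCODE annotation of GRCm38, with 1 principal transcript per gene. Of the 80 genes, 27 share over 5% of these sequences with other genes, and exons of 29 overlap another gene. Not all of these genes are marked above. Among those named, *Ndufs6* shares 14.6% and overlaps *Mrpl36* on the other strand, and *Cox5b* shares 25.9%.

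In simulated data for this comparison, 70 of 100 genes changed by 0.5 on the log2 scale and 84 of 100 changed by 1 were recovered among 14603 genes tested, with 15 false calls.

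The genes and lists were chosen with earlier results of these data known. The rule for named genes took *Wdr6*, in each complex the 3 genes of smallest p in either direction and the 2 with the highest level per kilobase, the isoform families, and the 3 with the smallest p in each other list. Genes named outside it were chosen after their values were seen, genes of the rule that the text does not name are counted within their lists, and 1 of the 80 genes that meets the rule is not reported here on its own. Alternatives were DESeq2 1.42.0, limma-voom (limma 3.58.1), other scalings, filters and lists, a replicate block, a correction for transcript length and GC content (splines with 5 degrees of freedom per library), and each library left out.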

Additional observations from a re-analysis of the deposited data

Results flagged for a closer look

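Within the WT group, 3 of 44 values examined had 1 library far from the other 3, with a gap to the nearest library above Dixon's critical share of the group's range, and chance gives about 1 in 20 such groups. *Ndufa3* stood at 19.5 CPM in WT replicate 4 (gap 0.843 of the range), *Uqcr10* at 74.1 CPM in WT replicate 2 (0.835), and the summed level of the complex I genes at 1457 CPM in WT replicate 3 (0.932). The WDR6-WKO group, with 3 libraries, could not be examined in this way.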

How the results depend on the processing

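The number of higher genes, 9 in the report, was 15 with library sizes alone (8.2% of all genes), 16 with a replicate block (6.39%), 26 with the length and GC correction without WDR6-WKO replicate 3, and 2 to 45 with 1 library left out. The number of lower genes, 1 in the report, was 0 when at least 10 counts were required in every library, which removes *Ndufa4l2*, and 0 with a strict list of subunits, which leaves that gene out. It was 5 with the length and GC correction without WDR6-WKO replicate 3, and 1 to 2 with 1 library left out. The replicate numbers do not pair the samples, so the block result carries no claim about pairing. With the length and GC correction alone the median log2 fold change was 0.0526 for complex III and 0.0111 for complex V, and over the 80 genes all alternatives gave 0.04 to 0.21. DESeq2 called 11 genes higher (6.77% of all genes) and limma-voom 9 (6.51%), each with 1 lower.

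*Ndufa4l2* (except where filtered out), *Cox7a2* and *Atp5o* were called under every alternative that tested them. Of 1019 values of 68 genes taken by the rule for named genes under the alternatives, 882 kept direction and call, 73 lost the call, 43 gained it, and 21 values of 8 uncalled genes changed sign, for which the cause was not tested. With the length and GC correction these were *Sdhd* (-0.0129), *Atp5a1* (-0.0159), *Cox4i2* (-0.116) and *Cox6b1* (-0.0795). With library sizes alone they were *Sdhc* (0.0114), *Uqcrh* (0.0152) and *Atp5c1* (0.0004), and with the replicate block *Atp5a1* (-0.0033). With 1 library left out, the values ran from -0.0408 to 0.0092 for *Sdhc*, -0.0339 to 0.0017 for *Uqcrh*, -0.272 to 0.221 for *Cox6c2*, -0.0257 to 0.037 for *Atp5a1*, -0.138 to 0.244 for *Cox4i2* and -0.0477 to 0.0786 for *Cox6b1*. Depth limits *Ndufa4l2*, *Cox4i2* and *Cox6c2*, and 4 libraries against 3 allow no exact p below 0.0286.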
